A study of Mus musculus with 768 samples.

Results

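Complement components and regulators were followed in single mesenchymal cells of mouse mammary tumors through 8 genes, C3, C4b, C1s1, C1ra, Serping1, Cfb, Cd55 and C5ar2, which were chosen by symbol from the 24490 endogenous genes of the deposited tables. The choice was made with earlier results of these data known, so the genes are not an independent list. All 8 were found, and they were described across the 727 of 768 wells that held at least 10000 reads on endogenous genes. Each well held 1 cell of a mammary tumor of an FVB/N-Tg(MMTVPyVT)634Mul/J mouse aged 14 weeks, whose mammary epithelium carries the polyoma middle T oncogene under the MMTV promoter. The cells had been sorted as negative for EpCAM, CD45, CD31 and NG2 and sequenced by Smart-seq2, a full-length method without molecular identifiers. Each of the 2 tumors filled 1 plate, so tumor and plate cannot be told apart. Whether the tumors came from different mice is not known here. There was no untreated or tumor-free group, and the tumor is the replicate (n = 2 tumors).

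Complement is a cascade of plasma and cell-surface proteins that marks surfaces for removal and recruits inflammatory cells. In the classical pathway the proteases C1r and C1s, held in check by C1 inhibitor, cleave C4 and C2 to form an enzyme that splits C3, and the alternative pathway forms its own C3-splitting enzyme with factor B. Surface proteins such as CD55 take these enzymes apart on the body's own cells, C5a receptors sense the fragment released further downstream, and fibroblasts and other stromal cells make several of the early components outside the liver.

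Wells were put into 3 classes by 1 gene each. For Rgs5, which marks vascular mural cells, Dcn, which encodes the matrix proteoglycan decorin, and Trf, which encodes transferrin, log2(RPKM + 1) was divided by that gene's 99th percentile over the kept wells, and a well took the class of its largest ratio if that ratio was at least 0.5. This gave 504 Rgs5-high wells (263 of tumor 1 and 241 of tumor 2), 168 Dcn-high wells (88 and 80) and 32 Trf-high wells (9 and 23), while 23 wells (13 and 10) fell into no class. Such a class is a range of 1 gene and not a cell type, and 35 wells lay near a cut, that is, with a largest ratio between 0.45 and 0.55 or with the 2 largest ratios less than 0.1 apart. No doublet caller was run, and 6 of the 32 Trf-high wells also had Dcn at or above its cut.

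The classes were checked against other genes. The 8 vascular markers summed to a mean of 2898 and 3212 RPKM in the Rgs5-high wells of tumors 1 and 2 and to 102.1 and 75.4 RPKM in the Dcn-high and 25.1 and 44.3 RPKM in the Trf-high wells. The 8 matrix markers summed to 5601 and 5510 RPKM in the Dcn-high wells, to 1703 and 1131 RPKM in the Trf-high wells and to 122 and 233 RPKM in the Rgs5-high wells. The 7 markers of the Trf-high cells summed to 5300 and 5755 RPKM in the Trf-high wells and to at most 344 RPKM in the Rgs5-high and Dcn-high wells, and the medians of endogenous reads per well lay between 191893 and 263918 over the classes and tumors. The Trf-high wells also held epithelial genes, which the sort should have removed: Epcam was read in 9 of 32 wells and Krt14 in 4 of 32, and the 7 epithelial markers summed to a mean of 1316 RPKM in tumor 1 and 400 RPKM in tumor 2, against 3.54 to 27.0 RPKM in the Rgs5-high and Dcn-high wells. Of the 6 Schwann cell markers S100b was read in 24 of the 32 Trf-high wells, and the list summed to 468 and 223 RPKM there in tumors 1 and 2. The 8 macrophage markers summed to 3.43 to 21.5 RPKM in the 3 classes, with Emr1 at 0 throughout, and the 5 endothelial markers to 63.2 and 121 RPKM in the Rgs5-high wells, where Emcn was read in 44.2% of the wells, Tie1 in 2, Kdr in 1 and Pecam1 and Cdh5 in none. What these other cells contributed to the values below was not tested beyond leaving out wells with a read of Epcam, Ptprc or Pecam1.

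The 8 genes lie on 5 chromosomes (RefSeq, GRCm38.p6, the assembly of mm10). C3 is at chr17:57203967-57228136, C4b at chr17:34728139-34743902 and Cfb at chr17:34856374-34862514, all on the minus strand. C1ra (chr6:124512621-124523440, plus strand) and C1s1 (chr6:124530344-124542392, minus strand) lie close together, Serping1 is at chr2:84765360-84775444, Cd55 at chr1:130429798-130465009 and C5ar2 at chr7:16234587-16244154, each on the minus strand. Some of them have near-identical copies that can share reads. Of all stretches of 43 bases, the read length, in the spliced transcripts, 51.2% of those of C1ra also occur in C1rb, 39.2% of those of C4b in C4a, 25.2% of those of C1s1 in C1s2 and 8.89% of those of Cd55 in Cd55b. These shares are not errors of the values, and how the deposited counts treated such reads was not tested. C5ar2 and C5ar1 share no such stretch.

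The levels of the members differed in pattern, which the plot of single wells shows. C1ra, C1s1 and Serping1 were read in most Rgs5-high and Dcn-high wells and were low in Trf-high wells. C5ar2 was read in the Trf-high wells and almost nowhere else. C3 and Cfb were high in a small number of Dcn-high wells, and Cd55 was read in part of the Dcn-high and Trf-high wells. C4b was read in most Trf-high wells and in a smaller share of both other classes.

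**Figure D1:**
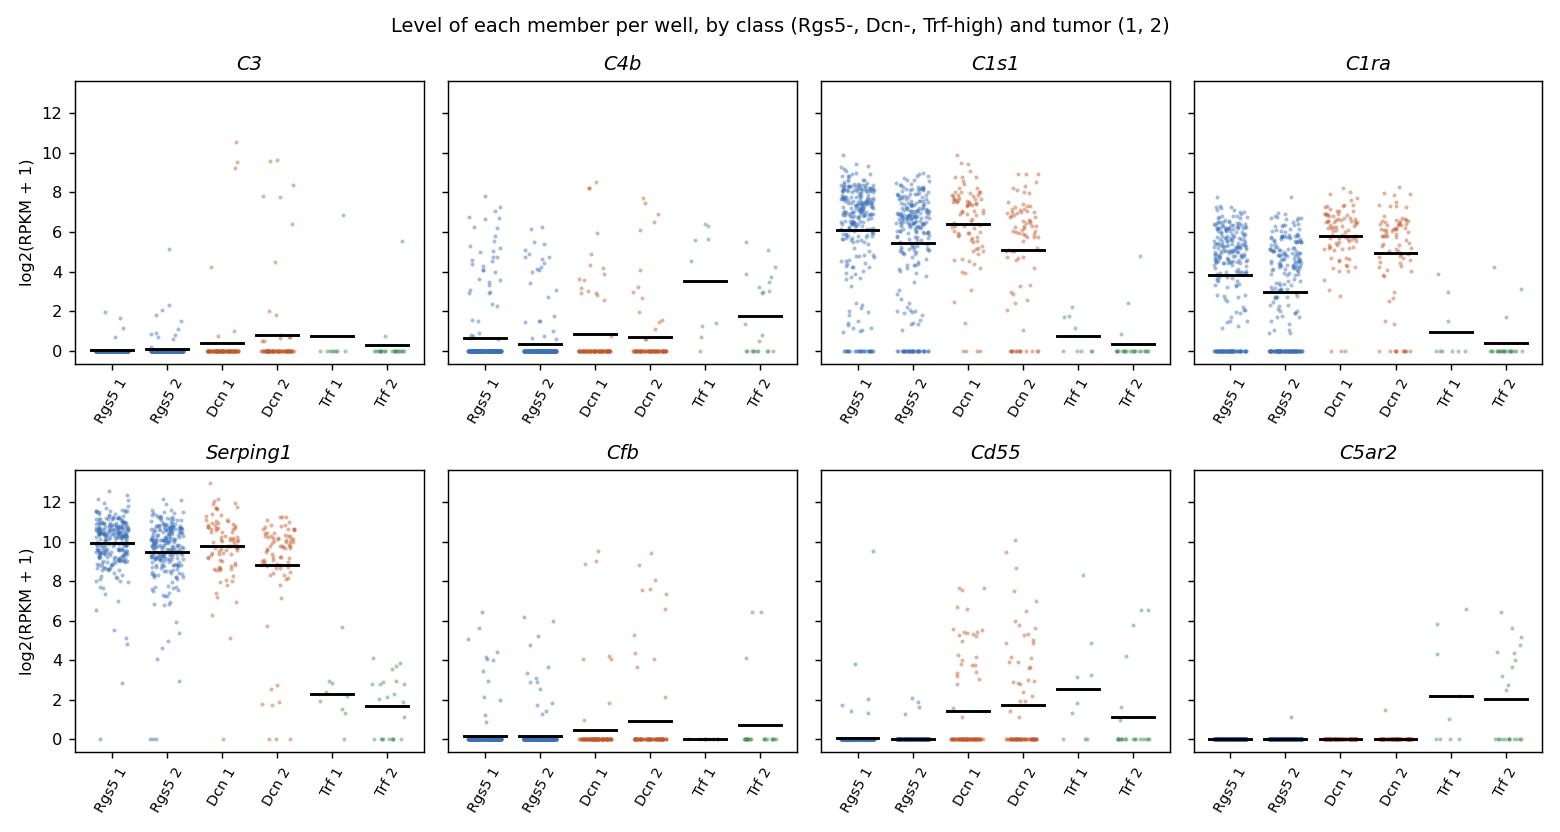
Level of each member as log2(RPKM + 1) in every well of the Rgs5-high, Dcn-high and Trf-high classes, by tumor (1 or 2); each point is a well and the black line is the mean over wells. C1s1, C1ra and Serping1 fill the upper range in the Rgs5-high and Dcn-high wells, C5ar2 leaves 0 in the Trf-high wells, and C3 and Cfb are at 0 in most wells of every class.

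Serping1, which encodes C1 inhibitor, was the most abundant member per length in Rgs5-high and Dcn-high wells, but not in Trf-high wells. Its mean over wells was 1295 and 1052 RPKM in the Rgs5-high wells of tumors 1 and 2, 1343 and 881 RPKM in the Dcn-high wells, and 8.62 and 4.29 RPKM in the Trf-high wells. The Rgs5-high and Dcn-high values overlapped between the tumors, and both tumors' Trf-high values lay far below them. By mean RPKM it ranked 21 of the 15908 genes with a read in Rgs5-high wells and 30 of 15236 in Dcn-high wells, but 7426 of 13640 in Trf-high wells. Serping1 was read in 99.2% of Rgs5-high, 97.6% of Dcn-high and 68.8% of Trf-high wells. Wells were also thinned to 50000 reads, and shallower wells were left out. This kept 256 and 227 Rgs5-high, 81 and 76 Dcn-high and 9 and 19 Trf-high wells of tumors 1 and 2. The mean share of Serping1 over the tumors was then 99.6%, 96.1% and 32.5%, so that its share in Trf-high wells depended on depth. All Trf-high wells together held 39 Serping1 reads in tumor 1 and 27 in tumor 2.

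C1s1, the mouse gene of the protease C1s, followed Serping1. Its mean was 154 and 109 RPKM in the Rgs5-high wells of tumors 1 and 2, 160 and 94.0 RPKM in the Dcn-high wells and 1.05 and 1.38 RPKM in the Trf-high wells, and it was read in 88.5%, 89.9% and 21.9% of the wells of these classes. C1ra, the mouse gene of the protease C1r, had a mean of 34.9 and 22.3 RPKM in Rgs5-high, 78.6 and 62.8 RPKM in Dcn-high and 2.49 and 1.20 RPKM in Trf-high wells. Reads of it were found in 70.6% of Rgs5-high, 92.3% of Dcn-high and 18.8% of Trf-high wells, and it alone of the 3 genes had a higher mean RPKM over wells in the Dcn-high than in the Rgs5-high class in both tumors, whereas in the summed libraries C1s1 and Serping1 were also slightly higher in both.

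The classes were compared on reads summed per class and tumor, giving 6 libraries, with edgeR's quasi-likelihood test and Benjamini-Hochberg adjustment over all 11715 genes with a mean of at least 1 RPKM. A gene was called at an adjusted p under 0.05. C5ar2, high only in the small Trf-high class, missed the minimum of 1 RPKM over all wells, and its separate fit is given below. Of the 7 members tested, 3 were lower in Trf-high than in Rgs5-high wells and none higher, where 6.68% of all genes tested were called lower and 4.77% higher. These 3 were Serping1 (log2 fold change -7.88 ± 0.69 SE, adjusted p = 0.00403), C1s1 (-6.58 ± 0.47, adjusted p = 0.00249) and C1ra (-3.97 ± 0.43, adjusted p = 0.00704). The same 3 were called higher in Dcn-high than in Trf-high wells and none of the 7 lower, where 5.78% of all genes were called higher and 2.44% lower: Serping1 at 8.03 ± 0.70 (adjusted p = 0.00655), C1s1 at 6.75 ± 0.47 (adjusted p = 0.00398) and C1ra at 5.46 ± 0.45 (adjusted p = 0.00585). Both comparisons share the Trf-high libraries. Without the Dcn-high library of tumor 1, Serping1 and C1ra no longer passed the threshold against Trf-high wells (adjusted p = 0.0539 for each).

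Between Dcn-high and Rgs5-high wells these genes were not called. The log2 fold change was 0.16 ± 0.50 for Serping1 (adjusted p = 0.954), 0.16 ± 0.35 for C1s1 (adjusted p = 0.923) and 1.49 ± 0.37 for C1ra (adjusted p = 0.0900). C1ra, at 283 and 230 CPM (reads scaled to a common library size with TMM factors) in the Dcn-high libraries of tumors 1 and 2 against 114 and 68.5 in the Rgs5-high libraries, did not overlap between the classes, but its difference did not pass the threshold. It passed with ERCC totals as library size, with DESeq2 and without either Trf-high library (adjusted p = 0.0295 and 0.0299), whose spread the fit shares.

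**Figure D2:**
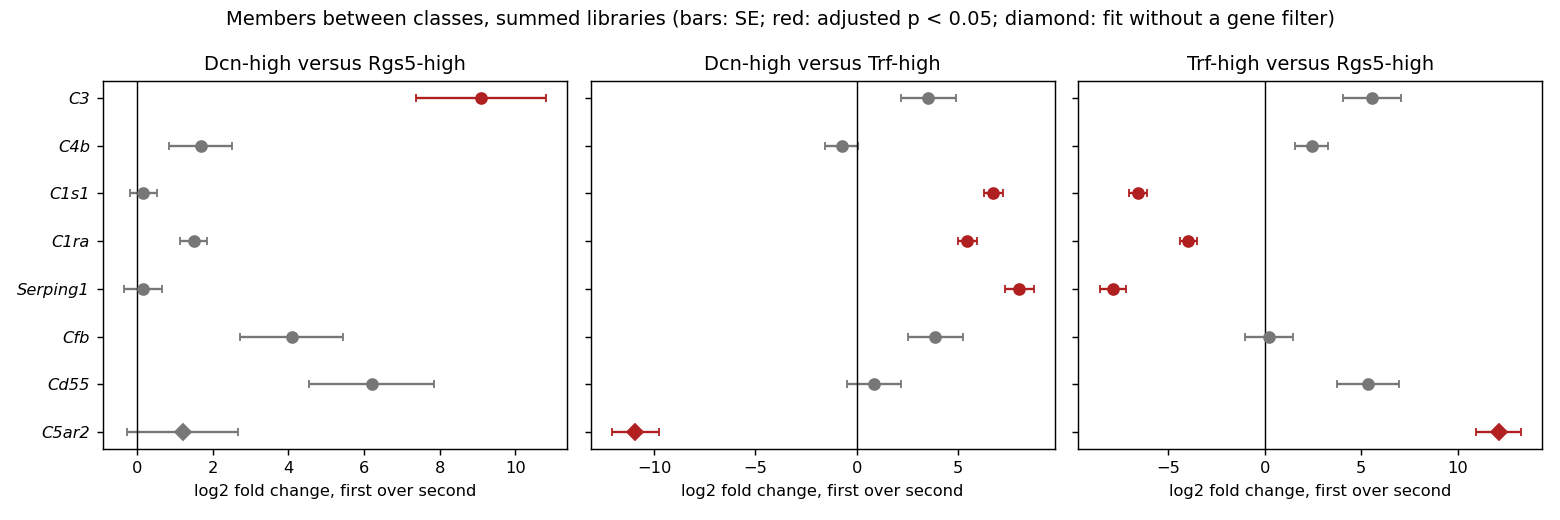
Log2 fold change of each member between classes, with its standard error, in 3 panels (Dcn-high over Rgs5-high, Dcn-high over Trf-high, Trf-high over Rgs5-high); red points are called at an adjusted p under 0.05, and diamonds mark C5ar2, which came from the fit without a filter on genes. C1s1, C1ra and Serping1 sit far from 0 in both panels with Trf-high wells, between -7.88 and -3.97 against Rgs5-high wells, and near 0 or at 1.49 in the panel without them.

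Reads of the 3 genes met in single wells. All 3 were read in 330 of 504 Rgs5-high wells (65.5%), in 142 of 168 Dcn-high wells (84.5%) and in 2 of 32 Trf-high wells (6.25%), and 8 Trf-high wells but no well of the other classes had a read of none of them. Over the Dcn-high wells their levels ranked alike, with a Spearman rho of 0.48 and 0.68 between C1s1 and C1ra in tumors 1 and 2 (n = 88 and 80 wells), 0.51 and 0.52 between C1s1 and Serping1, and 0.54 and 0.51 between C1ra and Serping1. Over the Rgs5-high wells the same pairs had 0.34 and 0.32, 0.48 and 0.43, and 0.43 and 0.41 (n = 263 and 241). The wells of a tumor share a plate and differ in depth, and these values are descriptions.

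C5ar2, which encodes the second receptor for the fragment C5a, was the member most restricted to 1 class. Reads of C5ar2 were found in 5 of 9 and 11 of 23 Trf-high wells of tumors 1 and 2 (55.6% and 47.8%, exact 95% intervals 21.2 to 86.3% and 26.8 to 69.4%), in 0 of 263 and 1 of 241 Rgs5-high wells, in 0 of 88 and 1 of 80 Dcn-high wells and in 0 of the 23 wells without a class. The upper ends of the exact intervals of the 0 counts were 1.39% of the Rgs5-high and 4.11% of the Dcn-high wells of tumor 1, and a limit of 3 counts allows a share of up to 1.14% and 3.41%. The single Rgs5-high and Dcn-high wells held 1 read each, against 200 and 289 reads over the Trf-high wells of the tumors, and the Dcn-high one had Trf just above the cut (a ratio of 0.522). Thinned to 50000 reads, with shallower wells left out, 4 of 9 and 10 of 19 Trf-high wells (44.4% and 52.6%) and none of the others kept a read.

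The 16 Trf-high wells with a C5ar2 read spread from 1.01 to 94.9 RPKM in tumor 1 and from 4.59 to 87.1 RPKM in tumor 2. As a rate over all endogenous reads, C5ar2 stood at 87.8 CPM in the Trf-high wells of tumor 1, at least 1618-fold above the Rgs5-high and at least 668-fold above the Dcn-high wells, in both of which no read was found and 3 reads per library were taken as the limit. In tumor 2 it stood at 62.5 CPM, 3028-fold (counting interval 543 to 119585) above the Rgs5-high and 1159-fold (208 to 45764) above the Dcn-high wells with 1 read each. These intervals cover the counting error of that 1 read only and hold the Trf-high rate fixed. With its mean over all wells C5ar2 missed the minimum of 1 RPKM and was not tested with the other members. In the fit without that minimum, over 17150 genes, it was called higher in Trf-high than in Rgs5-high wells (adjusted p = 0.00169, edgeR), where 4.07% of all genes were, and lower in Dcn-high than in Trf-high wells (adjusted p = 0.00357), where 2.06% were. It was not called between Dcn-high and Rgs5-high wells (adjusted p = 0.850). C5ar1, the better known C5a receptor, was read in 1 of 32 Trf-high wells and C3ar1, the receptor for C3a, in none.

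Within the Trf-high wells, markers of the class were read beside C5ar2 and without it. Sox10, a neural crest transcription factor, was read in 13 of the 16 wells with a C5ar2 read and in 10 of the 16 without, and Mia in 13 of 16 of both. C4b was read in 14 of the 16 wells with C5ar2 (87.5%) and in 7 of the 16 without (43.8%), and Cd55 in 9 and 3 (56.3% and 18.8%), but the wells with C5ar2 were also deeper, with a median of 252442 against 150336 endogenous reads. Epcam was read in 4 of the wells with C5ar2 and in 5 of those without. Of the 6 Trf-high wells with Dcn at or above its cut 5 had a C5ar2 read, as had 11 of the other 26.

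**Figure D3:**
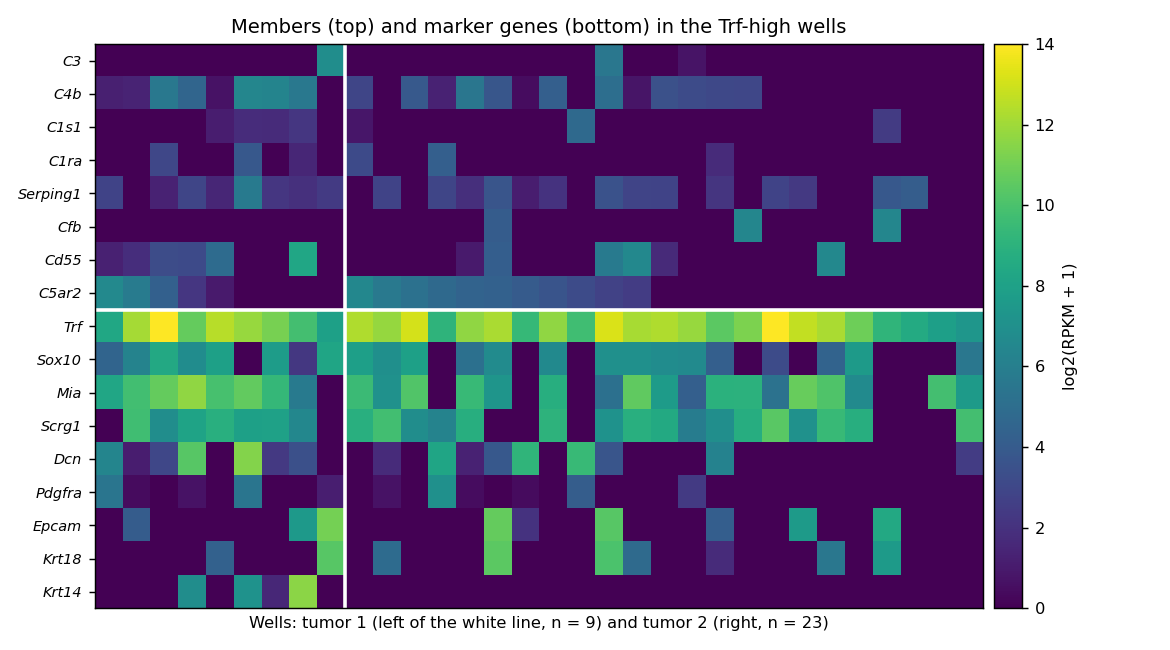
Levels, as log2(RPKM + 1) on a colour scale from 0 to 14 with higher values drawn as 14, of the 8 members (top) and of marker genes (bottom) in the 32 Trf-high wells, one column per well, with tumor 1 left and tumor 2 right of the white line and wells sorted by C5ar2. C5ar2 fills 5 of 9 and 11 of 23 columns and C4b 8 of 9 and 13 of 23, while C1s1 and C1ra are at 0 in most columns.

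The RefSeq promoter table held 7 promoters of 5 of the 8 members (C5ar2 and C1s1 with 2 starts each, C3, C1ra and Cd55). Of these, 3 held the letters of a C/EBP site, and they are the ones shown here, chosen with the matches known. The other 4, the second starts of C5ar2 and C1s1 and those of C1ra and Cd55, held none. C5ar2 was read mostly in Trf-high wells, C3 was highest in a few Dcn-high wells, and C1s1 was read in most Rgs5-high and Dcn-high wells. The 3 stretches were read 5' to 3' on the minus strand from this table, on GRCm38.p6, at chr7:16244155-16244404, chr17:57228137-57228386 and chr6:124542393-124542609. They hold the 250 bases before the start of C5ar2 and C3 and the 217 of C1s1 that lie outside its annotated body. Capitals mark matches to TTGCNNAA on either strand, the letters of sites for C/EBP factors of the acute-phase response.
C5ar2: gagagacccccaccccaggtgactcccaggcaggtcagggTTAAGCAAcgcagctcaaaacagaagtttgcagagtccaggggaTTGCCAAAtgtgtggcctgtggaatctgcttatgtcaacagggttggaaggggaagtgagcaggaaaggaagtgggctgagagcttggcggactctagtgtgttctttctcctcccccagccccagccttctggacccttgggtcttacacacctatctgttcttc
C3: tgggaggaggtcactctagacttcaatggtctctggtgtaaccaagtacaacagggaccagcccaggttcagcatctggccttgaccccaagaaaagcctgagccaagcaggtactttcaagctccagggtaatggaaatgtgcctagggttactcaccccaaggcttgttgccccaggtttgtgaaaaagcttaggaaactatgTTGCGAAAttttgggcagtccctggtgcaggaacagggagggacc
C1s1: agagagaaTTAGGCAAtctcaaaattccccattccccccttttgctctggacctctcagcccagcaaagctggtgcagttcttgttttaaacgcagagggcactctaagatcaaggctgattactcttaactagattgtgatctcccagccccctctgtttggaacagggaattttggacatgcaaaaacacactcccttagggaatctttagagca
C5ar2 had 2 matches, 210 and 166 bases before its start, C3 had 1 at 45 bases and C1s1 1 at 242 bases, counted from the start in the promoter table. Of all 32851 promoters of 250 bases 9.56% held these letters. The letters for NF-kappaB sites (GGANTTTCC), for STAT sites (TTCNNNGAA), for the core of interferon-stimulated elements (TTTCNNTTT), for SOX sites (ACAANG) and for the TATA box (TATAAA), which 1.07%, 7.02%, 9.37%, 36.3% and 12.4% of all promoters held on either strand, had no match in any of the 7 promoters. A match of letters is not a measured binding site.

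C3, the protein on which all pathways of complement converge, was read in few wells of any class. Its reads were found in 4 of 263 and 12 of 241 Rgs5-high wells, in 6 of 88 and 15 of 80 Dcn-high wells and in 1 of 9 and 2 of 23 Trf-high wells of tumors 1 and 2. The level in those wells differed too. C3 reached 1477, 740 and 606 RPKM in 3 Dcn-high wells of tumor 1, which together held 99.3% of its summed level there, and 788, 756 and 334 RPKM in 3 of tumor 2 (77.2%). The highest Rgs5-high well had 2.81 RPKM in tumor 1 and 34.4 RPKM in tumor 2. Over all kept wells the Dcn-high class, 23.1% of the wells, held 95.7% of the summed C3 level.

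In the summed libraries C3 stood at 133 and 237 CPM in Dcn-high, 0.07 and 0.61 in Rgs5-high and 30.5 and 2.49 in Trf-high wells of tumors 1 and 2. It was the 1 member of 7 called higher in Dcn-high than in Rgs5-high wells (log2 fold change 9.09 ± 1.71 SE, adjusted p = 0.0458), with no member lower, where 3.58% of all genes were called higher and 1.91% lower. With the tumor as a block the call was lost (adjusted p = 0.106). The call was also lost without the Rgs5-high library of tumor 1 (0.240) or tumor 2 (0.172) or the Dcn-high library of tumor 1 (0.172) or tumor 2 (0.207), and where wells high in more than 1 class gene were left out (0.0733) or a class gene counted as high at 100 RPKM (0.0639). Against Trf-high wells C3 was not called (3.54 ± 1.34, adjusted p = 0.177), nor between Trf-high and Rgs5-high wells (5.55 ± 1.51, adjusted p = 0.0772). The first was called with DESeq2 (adjusted p = 0.0355) and without the Trf-high library of tumor 1 (0.0325), the second with DESeq2 (0.00016), with each well scaled to the same total (0.0446) and without the Trf-high library of tumor 2 (0.0084). Of the 3 Trf-high wells with a C3 read 2 also had reads of Epcam and of the epithelial keratin Krt18. Without the wells that had a read of Epcam, Ptprc or Pecam1 the log2 fold change between Trf-high and Rgs5-high wells was -0.30, and C3 was called higher in Dcn-high than in Trf-high wells (10.00, adjusted p = 0.0142).

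Cfb, factor B of the alternative pathway, was like C3 high in few Dcn-high wells. Wells with a Cfb read were 8 of 88 and 12 of 80 in the Dcn-high class, up to 745 and 688 RPKM, and 3 wells held 97.0% of its summed level in tumor 1 and 65.9% in tumor 2. In Rgs5-high wells it was read in 13 of 263 and 14 of 241 wells, up to 86.1 and 71.2 RPKM, and in Trf-high wells in 3 of 23 and in 0 of 9, where the exact 95% interval reaches 33.6%. The summed libraries held 38.7 and 83.4 CPM in Dcn-high, 3.29 and 3.89 in Rgs5-high and 0 and 7.67 in Trf-high wells. Dcn-high values of both tumors thus lay above all others, but no difference was called (Dcn-high over Rgs5-high 4.09 ± 1.35, adjusted p = 0.190, Dcn-high over Trf-high 3.89 ± 1.37, adjusted p = 0.153). Both were called with DESeq2 (adjusted p = 0.0210 and 0.0223) and without either Trf-high library (adjusted p up to 0.0374).

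In Dcn-high wells the reads of C3, Cfb and C4b overlapped in part. Of the 21 wells with C3, 10 had Cfb (47.6%) and 11 had C4b (52.4%), against 6.80% and 14.3% of the 147 wells without C3, at median depths of 230130 and 242393 reads. All of C3, C4b and Cfb were read in 9 wells, 3 of tumor 1 and 6 of tumor 2. In 7 wells 2 of these genes were read and in 32 wells only 1, while 120 of 168 wells had a read of none of them. In 8 Dcn-high wells 7 of the 8 members were read, and in no Rgs5-high or Trf-high well were more than 5. Spearman's rho within tumors 1 and 2 was 0.43 and 0.48 between C3 and Cfb, 0.40 and 0.43 between C3 and C4b and 0.40 and 0.56 between C4b and Cfb (n = 88 and 80 wells, no p given). Cd34 and Dpp4, surface genes of matrix fibroblasts, were read in 13 and 6 of the 21 wells with C3 (61.9% and 28.6%) and in 27.9% and 2.72% of those without. The cytokine gene Il6 was read in 9.52% and 11.6%.

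**Figure D4:**
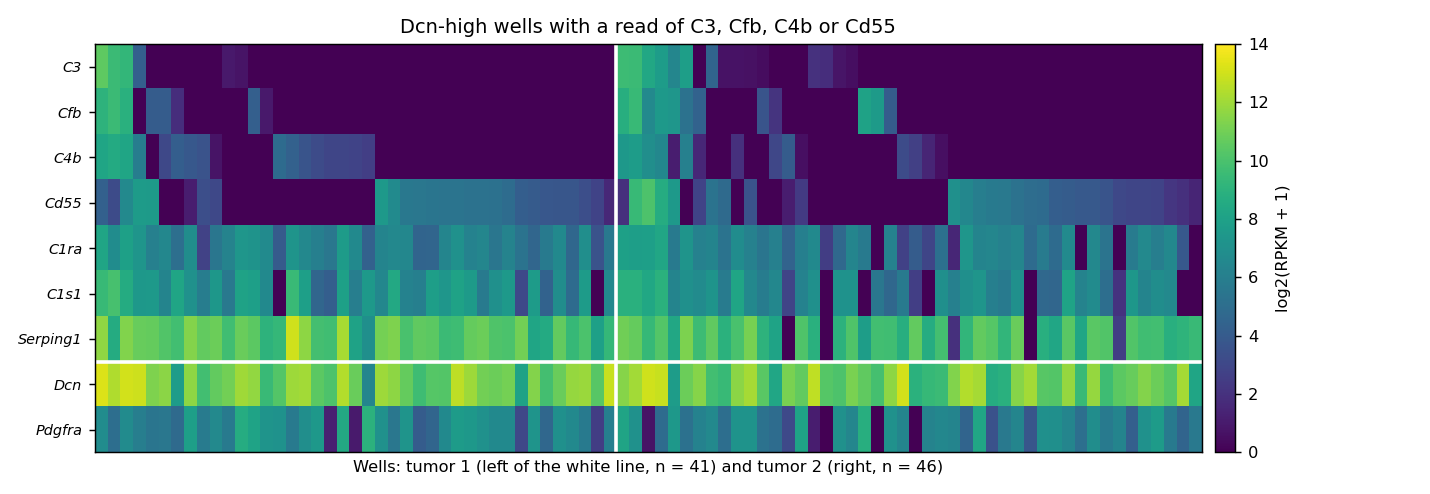
Levels, as log2(RPKM + 1) on the colour scale from 0 to 14, of the 7 members other than C5ar2 and, under the horizontal line, of Dcn and Pdgfra in the 87 Dcn-high wells with a read of C3, Cfb, C4b or Cd55, one column per well, with 41 of tumor 1 and 46 of tumor 2 split by the vertical line. High C3, Cfb and C4b stand in the same few columns at the left of each tumor, whereas Cd55 extends over many columns without them.

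C4b, the mouse gene of complement C4, had after Serping1 the largest share of Trf-high wells with a read, counted over both tumors without thinning. This was 8 of 9 and 13 of 23 Trf-high wells of tumors 1 and 2 (88.9% and 56.5%), against 19.3% and 18.8% of Dcn-high and 15.2% and 10.4% of Rgs5-high wells. Thinned to 50000 reads, with shallower wells left out, C4b was read in 66.7% and 52.6% of 9 and 19 Trf-high wells. The thinned shares were 16.05% and 13.2% of 81 and 76 Dcn-high wells and 13.7% and 8.81% of 256 and 227 Rgs5-high wells. At that depth Serping1 was read in 33.3% and 31.6% of the Trf-high wells, below C4b. The exact 95% intervals of the unthinned Trf-high shares of C4b, 51.8 to 99.7% and 34.5 to 76.8%, lay above those of the other classes in the same tumor, which reached at most 29.1%, though they cover counting error only. The highest Dcn-high wells reached 371 and 211 RPKM of C4b against 85.0 and 43.5 RPKM in the Trf-high class, while the median over wells with a read was 11.5 and 6.84 RPKM in the Dcn-high and 34.9 and 8.16 RPKM in the Trf-high class.

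Summed over wells, C4b stood at 29.5 and 10.2 CPM in Rgs5-high, 56.0 and 71.5 in Dcn-high and 176 and 38.9 in Trf-high libraries of tumors 1 and 2. Both Dcn-high and both Trf-high values exceeded both Rgs5-high values, but the Dcn-high and Trf-high ranges overlapped. No difference was called: Trf-high over Rgs5-high was 2.43 ± 0.85 (adjusted p = 0.140, 0.0254 with DESeq2 and 0.0171 without the Trf-high library of tumor 2), Dcn-high over Rgs5-high 1.68 ± 0.83 (adjusted p = 0.403) and Dcn-high over Trf-high -0.75 ± 0.82 (adjusted p = 0.625).

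Cd55, which encodes decay-accelerating factor, was close to absent from Rgs5-high wells. Reads were found in 6 of 263 and 4 of 241 of them, in 27 of 88 and 31 of 80 Dcn-high wells (30.7% and 38.8%) and in 6 of 9 and 6 of 23 Trf-high wells (66.7% and 26.1%). A single Rgs5-high well of tumor 1 at 725 RPKM held most of the level of that class there, where the next had 13.2 RPKM. Unlike C3 and Cfb, Cd55 was spread over the Dcn-high class, with 58 wells of which 12 also had C3, although 3 wells held 46.1% and 71.7% of its summed level in tumors 1 and 2.

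The summed libraries gave Cd55 2.47 and 0.08 CPM in Rgs5-high, 47.5 and 142 in Dcn-high and 76.8 and 27.2 in Trf-high wells. Both other classes lay above the Rgs5-high class in both tumors and overlapped each other. The log2 fold change was 6.20 ± 1.65 for Dcn-high over Rgs5-high (adjusted p = 0.113), 5.33 ± 1.59 for Trf-high over Rgs5-high (adjusted p = 0.0984) and 0.87 ± 1.33 for Dcn-high over Trf-high (adjusted p = 0.736), and none was called. The first and second were called in wells with at least 50000 reads (adjusted p = 0.0159 and 0.0118) and with classes from marker lists (0.0223 and 0.0122) and with DESeq2 (9.4e-05 and 0.00076), and the second also without the Trf-high library of tumor 2 (0.0375).

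**Figure D5:**
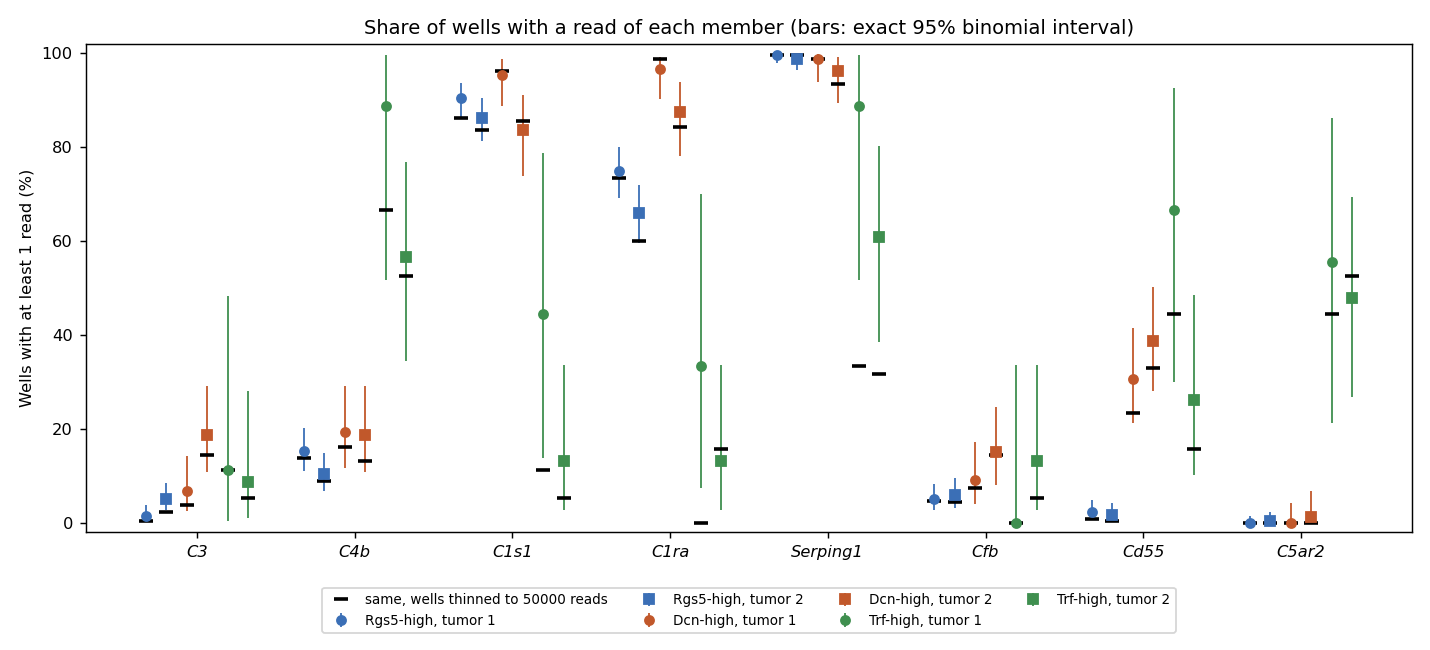
Percent of wells with at least 1 read of each member by class (colour) and tumor (circle for tumor 1, square for tumor 2), with exact 95% binomial intervals; black dashes give the share after thinning wells to 50000 reads, with shallower wells left out. Serping1 in Trf-high wells drops on thinning to 33.3% and 31.6%, whereas C4b and C5ar2 in Trf-high wells stay at 44.4% or more.

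As a whole the members made up a different mixture in each class. Serping1 gave 86.7% and 88.7% of the summed mean RPKM of the 8 genes in the Rgs5-high wells of tumors 1 and 2 and 80.8% and 77.2% in the Dcn-high wells, with C1s1 at 8.24 to 10.3% in both classes. In Trf-high wells the 8 genes summed to 117 and 47.7 RPKM, against 1142 to 1662 RPKM elsewhere, and the largest parts were Cd55 (34.8%), C4b (27.1%) and C5ar2 (16.6%) in tumor 1 and C5ar2 (25.8%), Cd55 (23.7%) and Cfb (17.1%) in tumor 2. These parts rested on few wells. Of the summed level, 3 wells held 96.7% of Cd55, 74.2% of C4b and 97.4% of C5ar2 in tumor 1, with 1 well at 316 RPKM for Cd55, and 92.1% of Cd55 and 60.5% of C5ar2 in tumor 2. Cfb in tumor 2 came from 3 wells in all, at 86.0, 86.0 and 16.04 RPKM, of which 2 also held a read of Epcam and 2 one of Krt18. The median log2 fold change over the 7 members tested was 1.68 for Dcn-high over Rgs5-high, 3.89 for Dcn-high over Trf-high and 0.19 for Trf-high over Rgs5-high, beside -0.04, 0.10 and -0.10 over all genes tested. These medians leave out C5ar2, which had 1.20, -10.92 and 12.12 in the same order in the fit without a filter on genes.

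Of 50 other genes of the complement system, 22 had a mean of at least 1 RPKM and were tested. In Dcn-high over Rgs5-high wells 2 were called higher and 1 lower (median log2 fold change 0.29), with 1 and 1 when the tumor was a block, beside 3.58% higher and 1.91% lower and a median of -0.04 over all genes tested. In Dcn-high over Trf-high wells 5 were higher and none lower (2 and none with the block), with a median of 1.73, or 1.66 with genes that had no read in a class at the bound that 3 counts over its libraries give, beside 5.78% and 2.44% of all genes and their median of 0.10. In Trf-high over Rgs5-high wells 2 were higher and 4 lower (2 and 3 with the block), with a median of -1.44, or -1.12 at the bounds, beside 4.77% and 6.68% of all genes and their median of -0.10. Cd59a, which encodes an inhibitor of the membrane attack complex, was higher in Dcn-high than in Rgs5-high wells (3.71 ± 0.34, adjusted p = 0.00729) and in Trf-high than in Rgs5-high wells (2.13 ± 0.32, adjusted p = 0.0166), as well as in Dcn-high than in Trf-high wells (1.58 ± 0.31, adjusted p = 0.0417, and 0.0774 with the block), and was read in 21.4% of Rgs5-high, 78.0% of Dcn-high and 78.1% of Trf-high wells. Its neighbour Cd59b was read in 14.9%, 59.5% and 56.3% and was not called. Vtn, vitronectin, which also binds the terminal complex, showed the reverse: read in 81.5% of Rgs5-high, 17.3% of Dcn-high and 18.8% of Trf-high wells, it was lower in Dcn-high (-5.32 ± 0.87, adjusted p = 0.0323) and Trf-high wells (-8.96 ± 1.12, adjusted p = 0.0107) than in Rgs5-high wells.

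C2, the classical pathway protease that pairs with C4, was read in 65.5% of Dcn-high, 23.6% of Rgs5-high and 15.6% of Trf-high wells. It was higher in Dcn-high than in Rgs5-high wells (1.50 ± 0.26, adjusted p = 0.0372, and 0.0795 with the tumor as a block) and lower in Trf-high than in Rgs5-high wells (-6.49 ± 0.37, adjusted p = 0.00173). C1rb, a copy of C1ra, was called lower in Trf-high than in Rgs5-high wells (-5.53 ± 1.04, adjusted p = 0.0313, and 0.0747 with the block). It lay outside the rule for naming genes and was named after its values had been seen.

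Clu, clusterin, an inhibitor of the terminal complex, was the other gene called higher in Trf-high than in Rgs5-high wells (6.97 ± 1.26, adjusted p = 0.0276). Clu reads were found in 59.4% of Trf-high, 10.7% of Dcn-high and 2.98% of Rgs5-high wells. Hc, the mouse gene of C5, was read in 42 of 88 and 29 of 80 Dcn-high wells, in 7 of 263 and 2 of 241 Rgs5-high wells and in 0 of 9 and 0 of 23 Trf-high wells, where the exact 95% intervals reach 33.6% and 14.8%. It was called higher in Dcn-high than in Trf-high wells (adjusted p = 0.0488, and 0.0749 with the block) and not in Dcn-high over Rgs5-high wells (adjusted p = 0.0913). Masp1, the lectin pathway protease, was read in 26.8% of Dcn-high wells, 0.992% of Rgs5-high wells and none of the Trf-high wells, and was not called in any comparison. The terminal components C6 and C7 were read in 3.37% and 17.5% of Rgs5-high wells, C6 in no other class, and the difference was not called (adjusted p = 0.0837 and 0.346 for Dcn-high over Rgs5-high). Cd93, a surface protein first described as a C1q receptor, was read in 11.3% of Rgs5-high, 1.79% of Dcn-high and 9.38% of Trf-high wells and was not called (adjusted p = 0.285).

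Some components were rare or had no read. The C1q genes C1qa, C1qb and C1qc, which macrophages express, were read in at most 6 of 168 Dcn-high wells, 2 of 504 Rgs5-high wells and none of the Trf-high wells. Cfd, C8a, C8b, Mbl1 and Mbl2 had no read in any class, where a limit of 3 counts is 1.14% and 1.24% of the Rgs5-high and 3.41% and 3.75% of the Dcn-high wells of tumors 1 and 2 and the exact 95% intervals reach 33.6% and 14.8% of the Trf-high wells.

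Of a list of 22 genes of the cytokine pathways known to induce complement genes, 20 were tested. In Dcn-high over Rgs5-high wells 1 was called higher and 1 lower (median 0.21), beside 3.58% and 1.91% of all genes tested and their median of -0.04. In Dcn-high over Trf-high wells 1 was higher and 1 lower (median 0.90, or 0.86 without Saa3, which had no read in Trf-high wells and too few in Dcn-high wells for a bound), beside 5.78% and 2.44% and a median of 0.10. In Trf-high over Rgs5-high wells 2 were higher and 2 lower, or 2 and 1 with the block (median -0.43), beside 4.77% and 6.68% and a median of -0.10. Lbp, the acute-phase protein that binds lipopolysaccharide, was higher in Dcn-high (6.73 ± 0.43, adjusted p = 0.00371) and in Trf-high (8.78 ± 0.47, adjusted p = 0.00172) than in Rgs5-high wells, and Il6st, the shared receptor chain of the interleukin-6 family, was lower in both (-1.75 ± 0.23, adjusted p = 0.0188, and -3.63 ± 0.25, adjusted p = 0.00228). Lcn2, lipocalin 2, was higher in Trf-high than in Rgs5-high wells (5.28 ± 1.16, adjusted p = 0.0455) and is also one of the markers by which these wells were checked, and Osmr, the oncostatin M receptor, was lower (-1.56 ± 0.34, adjusted p = 0.0449, and 0.0594 with the block). Both lay outside the rule for naming genes. Ifngr1, Cebpb, Rela and Ifngr2 were not called between Dcn-high and Rgs5-high wells (adjusted p = 0.132, 0.136, 0.210 and 0.220).

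Over the Dcn-high wells, the genes whose levels ranked most like C3 were Fgf7, Tnxb and Ackr1, with a Spearman rho, as the lower of the values in the tumors, of 0.50, 0.50 and 0.47 (n = 88 and 80 wells), and those most like C4b were Clec3b, Ackr1 and Ces2g (0.49, 0.47 and 0.45). All of these were read in 4.17 to 12.5% of the wells. For Serping1, Cd302 and Fbln1 were among the most alike (0.46 and 0.45), and both were read in at least 96.4% of the wells.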

How the data were processed

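Single cells of 2 tumors were measured by Smart-seq2, 1 cell per well. The deposited counts give whole reads per gene, for which the authors had aligned the reads with STAR to mm10 and used the RefSeq annotation. The deposited RPKM values were computed by the authors with rpkmforgenes, and recomputation from the counts showed that the total they divide by includes the ERCC spike-ins. Columns were matched to wells by name, and 41 wells with fewer than 10000 endogenous reads were left out, which left wells of 10281 to 1190516 reads. Without molecular identifiers reads are not independent molecules, so binomial intervals and limits from 3 counts cover counting error only.

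Counts were summed per class and tumor and tested with edgeR 4.0.16 (TMM, glmQLFit, glmQLFTest, no covariate, 3 residual degrees of freedom, R 4.3.3). The libraries of a tumor come from 1 mouse and are paired by origin (correlations of their deviations 0.14, 0.06 and -0.0028). On data simulated for Dcn-high over Rgs5-high wells with 11715 genes, 52 of 100 genes changed 16-fold, 5 of 100 changed 4-fold and 4 of 11515 unchanged genes were called. As alternatives, the tumor entered as a block, or DESeq2 1.42.0 was used, with other scalings, filters and class rules, with libraries left out and with the threshold of 0.001 that the study used. The text names all members, 10 other complement genes and 6 signalling genes with the smallest adjusted p between Dcn-high and Rgs5-high wells, and the 3 genes most like C3, C4b and Serping1, apart from genes that are not reported here. Members, lists and class rule were chosen with earlier results of these data known.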

Additional observations from a re-analysis of the deposited data

Results flagged for a closer look

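Between the tumors, 3 members differed in opposite directions in 1 comparison each, and none of these differences was tested. C4b was lower in Dcn-high than in Trf-high wells in tumor 1 (log2 ratio -1.65) and higher in tumor 2 (0.88). Cd55 did the same (-0.69 in tumor 1 and 2.38 in tumor 2). Cfb, with no read in the 9 Trf-high wells of tumor 1, had a fitted log2 ratio of -6.39 for Trf-high over Rgs5-high wells there, which depends on the prior count and is no bound, and 0.97 in tumor 2.

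The 23 wells that fell into no class entered no comparison, and 7 of the members were read in them. Serping1 was read in 91.3% of these wells, C1s1 in 47.8% and C1ra in 30.4%. C3, C4b, Cfb and Cd55 were each read in 13.04%.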

How the results depend on the processing

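C1s1, C1ra and Serping1 were called in the same direction in both comparisons with Trf-high wells under all 13 alternatives of scaling, filter, class rule, block and tool, with adjusted p up to 0.0189. The number of members called in Dcn-high over Rgs5-high wells (1 as reported) was 0 with the tumor as a block, without wells high in more than 1 class gene, with class genes high at RPKM 100 and at a threshold of 0.001, was 2 with ERCC totals as library size, with wells of at least 50000 reads and with classes from marker lists, and 4 with DESeq2. It ranged from 0 to 3 with 1 library left out. In Dcn-high over Trf-high wells (3) it was 5 with DESeq2 and 0 at 0.001, and ranged from 1 to 5 with 1 library left out, and in Trf-high over Rgs5-high wells (3) it was 6 with DESeq2 and 0 at 0.001, and ranged from 3 to 7. The block changed no other count of members, while it lowered the calls over all genes from 643 to 334, from 963 to 503 and from 1341 to 801. DESeq2 raised them to 1775, 2707 and 2910, and with edgeR 0 genes passed in any comparison at 0.001. With 1 library left out they ranged from 0 (without the Rgs5-high library of tumor 2) to 1769, 65 to 3965 and 210 to 4203, and ERCC totals gave 975 in Dcn-high over Rgs5-high wells. A class left with 1 library is assumed to vary like the others. With 1 tumor left out no test is possible, and log2 ratios of 1 tumor are values only.

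Signs turned for differences that were not called: C1s1 (-0.06 and -0.14, with 0.44 as the highest value with 1 library left out) and Serping1 (-0.01 and -0.10, highest 0.40) in Dcn-high over Rgs5-high wells without the Rgs5-high library of tumor 2 and without the Dcn-high library of tumor 1, C4b in Dcn-high over Trf-high wells (0.71) without the Trf-high library of tumor 1, with -1.65 and 0.88 in tumors 1 and 2 alone, Cd55 there with marker lists (-0.068), with -0.69 and 2.38 in tumors 1 and 2 alone, and without the Dcn-high library of tumor 2 (-0.12), C3 in Trf-high over Rgs5-high wells without wells with Epcam, Ptprc or Pecam1 (-0.30), and Cfb there with the block (-0.48), with wells of at least 50000 reads (-0.80), with marker lists (-0.44), without the Epcam, Ptprc or Pecam1 wells (-0.53) and without the Trf-high library of tumor 2 (-9.72, adjusted p = 0.0401, with no Cfb read left in that class, against 1.10 without that of tumor 1). The cause was not tested.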
